A study of Mus musculus with 16 samples.

Results

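CpG methylation was described at 9 genes of the myeloid lineage, Spi1, Cebpa, Csf1r, Csf3r, Mpo, Elane, Lyz2, Cd14 and Itgam, in lymphocytes that descend from other branches of blood formation. The genes were taken by name and are 9 of the 21938 protein-coding genes of the GENCODE vM21 annotation on mm10. Each was divided into 500 bp tiles from 10 kb upstream of its transcription start site (TSS) to its end, which gave 509 tiles, of which 374 held at least 3 CpGs and enough calls to be tested. A call is a read of 1 CpG in 1 library, methylated or not, and a methylation level is the percentage of methylated calls pooled over the CpGs of a window.

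The data were 16 whole genome bisulphite sequencing (WGBS) libraries from spleens of C57BL/6J mice aged 6 to 8 weeks, sorted on magnetic columns into CD43- B cells, described as resting, and CD4+CD62L+ T cells, described as naive. All groups share 1 strain, and the labels name no treatment and no genetic change. There were 8 libraries of each cell type, divided evenly between males and females and between the assays, with 2 for each combination. The assays were bisulphite sequencing (BS), which reads 5-methylcytosine and 5-hydroxymethylcytosine alike, and oxidative bisulphite sequencing (oxBS), which reads 5-methylcytosine alone. Mice were pooled, and libraries carry numbers from 1 to 16 that name no mouse. The p-values therefore measure the spread between libraries, which may be partly technical. A BS and an oxBS library may share mice, and so may a B cell and a T cell library.

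Myeloid cells are the granulocytes, monocytes and macrophages of the blood and tissues. Their fate is set by transcription factors, above all PU.1, encoded by Spi1, and C/EBPα, encoded by Cebpa, which switch on growth factor receptors, granule enzymes and surface receptors. PU.1 is also made by B cells and is switched off as T cells form in the thymus. DNA methylation is usually low at active promoters and enhancers and high elsewhere in the genome.

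Libraries held between 123346598 and 170653234 calls, or 5.64 to 7.80 per reference CpG, and genome-wide methylation was 80.5% ± 0.641 in B cells and 79.2% ± 0.491 in T cells (n = 8 each, ± SD). No pair of libraries looked like 1 library deposited again, as the share of chromosome 19 CpGs with identical calls lay between 7.03% and 8.88% over the 120 pairs. The labelled cell types were checked at marker promoters, of which 8 of 8 B cell markers passed the adjusted p of the model described below with the lower level in B cells, and 8 of 9 T cell markers with the lower level in T cells. By the rule given there, which also asks for a difference of 20 points, 6 of 8 B cell markers were called (not Pax5 and Ebf1) and 7 of 9 T cell markers (not Cd28 and Bcl11b). Promoters of 2 of 2 CD8 T cell markers and of 1 of 5 NK cell markers, Nkg7, were called lower in T cells, while 0 of 4 erythroid, 0 of 4 platelet and 0 of 3 stromal and endothelial markers were called. Of those last 3 lists Gp9, a platelet glycoprotein (-9.94 points, quasi-binomial adjusted p = 0.0368), and Pecam1, an endothelial adhesion molecule (1.85 points, quasi-binomial adjusted p = 0.0328), passed by adjusted p alone. In DNA from many cells, an intermediate level in every cell and a low level in some of them cannot be told apart.

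Windows of 6 called tiles are shown as sequence, so that the CpGs behind their values can be seen, while Csf1r, the Spi1 tile at 14.5 kb, which touches an untranslated region, and Mpo are given by their values alone. Each is the 300 bases of its tile with the most CpGs, read 5′ to 3′ along the gene from the mm10 reference, with the CpGs in capitals, and is named by the distance of the tile from the start of the gene record.
Spi1 +15 kb (chr2:91097408-91097707, + strand): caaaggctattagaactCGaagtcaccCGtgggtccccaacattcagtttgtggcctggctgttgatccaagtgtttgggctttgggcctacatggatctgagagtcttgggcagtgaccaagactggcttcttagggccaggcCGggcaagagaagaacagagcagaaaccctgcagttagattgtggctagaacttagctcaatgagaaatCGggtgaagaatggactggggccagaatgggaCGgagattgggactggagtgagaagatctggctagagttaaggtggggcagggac
Spi1 +6 kb (chr2:91088508-91088807, + strand): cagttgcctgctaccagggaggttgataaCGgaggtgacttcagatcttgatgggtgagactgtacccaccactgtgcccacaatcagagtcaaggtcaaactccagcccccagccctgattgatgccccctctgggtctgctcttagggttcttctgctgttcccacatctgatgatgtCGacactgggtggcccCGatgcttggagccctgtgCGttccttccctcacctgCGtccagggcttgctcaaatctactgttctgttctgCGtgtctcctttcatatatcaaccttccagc
Spi1 +17.5 kb (chr2:91100089-91100388, + strand): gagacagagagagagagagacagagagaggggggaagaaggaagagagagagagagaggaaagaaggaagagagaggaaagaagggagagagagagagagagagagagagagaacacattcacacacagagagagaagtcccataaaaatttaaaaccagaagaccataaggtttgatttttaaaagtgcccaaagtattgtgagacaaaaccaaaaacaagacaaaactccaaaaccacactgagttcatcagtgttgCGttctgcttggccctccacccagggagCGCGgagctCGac
Itgam +17.5 kb (chr7:128080243-128080542, + strand): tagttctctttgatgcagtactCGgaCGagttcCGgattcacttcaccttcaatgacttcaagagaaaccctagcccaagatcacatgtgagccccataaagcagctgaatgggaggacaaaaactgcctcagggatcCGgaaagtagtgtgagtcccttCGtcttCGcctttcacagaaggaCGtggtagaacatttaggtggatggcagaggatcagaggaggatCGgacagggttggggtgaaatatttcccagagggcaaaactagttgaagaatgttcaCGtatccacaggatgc
Itgam +36.5 kb (chr7:128099298-128099597, + strand): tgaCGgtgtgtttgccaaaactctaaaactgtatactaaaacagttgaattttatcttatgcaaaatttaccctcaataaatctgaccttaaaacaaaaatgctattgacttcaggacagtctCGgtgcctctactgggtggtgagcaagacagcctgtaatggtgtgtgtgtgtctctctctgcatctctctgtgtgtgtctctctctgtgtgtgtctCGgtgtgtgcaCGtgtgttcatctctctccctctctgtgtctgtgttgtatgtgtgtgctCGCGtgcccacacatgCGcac
Lyz2 +0.5 kb (chr10:117281492-117281791, - strand): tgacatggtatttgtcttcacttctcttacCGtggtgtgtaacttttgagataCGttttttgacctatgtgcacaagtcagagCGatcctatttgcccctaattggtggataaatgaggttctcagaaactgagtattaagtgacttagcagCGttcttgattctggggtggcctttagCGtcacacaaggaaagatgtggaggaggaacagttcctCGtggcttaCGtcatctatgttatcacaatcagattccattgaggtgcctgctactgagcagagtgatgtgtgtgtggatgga

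At the 6 CpGs of the Spi1 +6 kb window, pooled levels ran from 95.5% to 100% in B cells against 0% to 41.3% in T cells, and at the 9 CpGs of the Itgam +17.5 kb window from 95.1% to 98.9% in B cells against 20.6% to 70.1% in T cells. In both windows every CpG was higher in B cells. The 5 CpGs of the Spi1 +15 kb window went the other way, from 0% to 20.6% in B cells against 22.4% to 97.1% in T cells. In the Itgam +36.5 kb window the CpGs were uneven in B cells, from 10.3% to 97.4%, against 92.6% to 100% in T cells. The 7 CpGs of the Lyz2 +0.5 kb window, from 32.1% to 95.8% in B cells against 58.4% to 98.2% in T cells, were each lower in B cells. The 4 CpGs of the Spi1 +17.5 kb window lay from 38% to 95.8% in B cells against 1.09% to 12.4% in T cells. Each of these values rests on 34 to 118 calls per cell type. The windows were searched on both strands for GAGGAAGT, a form of the PU.1 motif, and TTGCNNAA, a form of the C/EBP motif, which 3.20% and 10.8% of 32851 RefSeq promoter windows of 300 bp hold. GAGGAAGT was in 0 of the 6 windows, and TTGCNNAA occurred at 1 place in the Spi1 +6 kb window and at 2 places in the Itgam +36.5 kb window, which says only where these letters stand.

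The first comparison asked whether the promoters of the myeloid genes, taken as TSS ± 1 kb, differ between B and T cells. They did so at Lyz2 and Spi1, both lower in B cells, and the other 7 did not pass the test. Each window was compared with a quasi-binomial logistic model over the 16 libraries, with sex and assay as terms and Benjamini-Hochberg adjustment over all promoters, and was called at an adjusted p under 0.05 where the pooled levels also differed by at least 20 points. By that rule 0 of the 9 member promoters were called with the TSS at the start of the gene record, against 1.1% of 20905 promoters. With the TSS of the first listed transcript, described below, 1 of 9 was called, Spi1. At the starts of the gene records 2 of 9 passed by adjusted p alone, both lower in B cells, against 10% of all promoters and 2.89% lower in B cells. At 1 of 9, Lyz2, the library levels of the cell types did not overlap, against 3.62%. Which promoters passed depended on the window. Within TSS ± 500 bp Lyz2 no longer passed, at -10.7 points (quasi-binomial adjusted p = 0.0776), while Spi1 at -17.9 points, Csf3r at -8.96 points and Itgam at 15.4 points did (quasi-binomial adjusted p = 0.000365, 0.00496 and 0.0395). Within TSS ± 2000 bp Lyz2 at -9.94 points and Spi1 at -10.4 points passed, as did Csf1r at -6.46 points and Csf3r at -6.54 points (quasi-binomial adjusted p = 0.000658, 0.00441, 0.00358 and 0.0259).

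**Figure D1:**
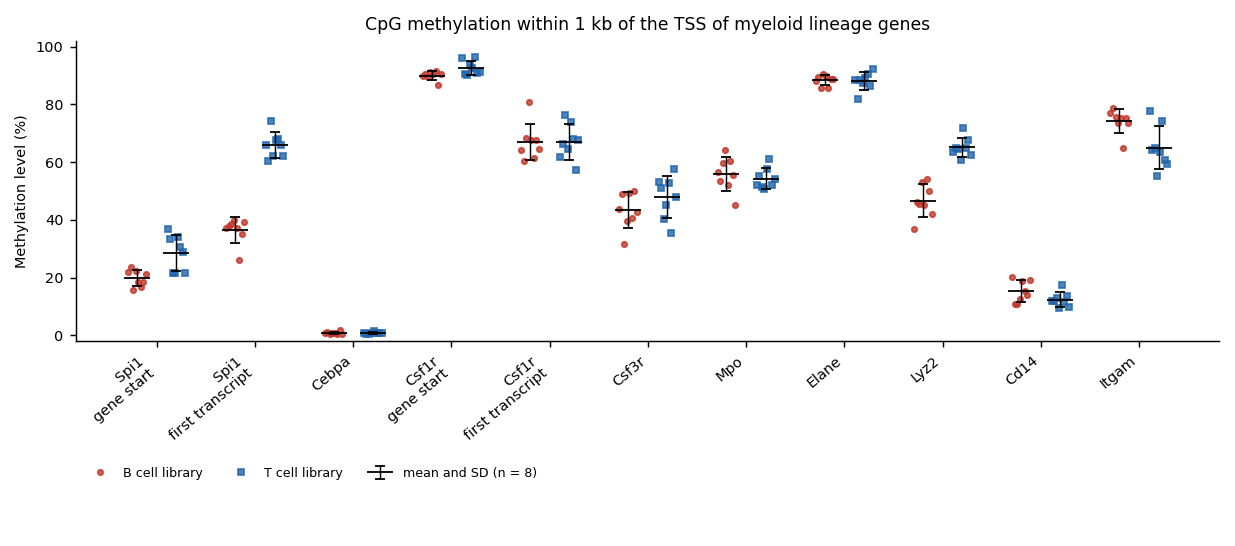
Methylation level (y axis, %) within 1 kb of the TSS of each gene (x axis), with 1 point per library (circles, B cells; squares, T cells) and bars for the mean and SD of 8 libraries. Cebpa lay at the floor and Csf1r at its gene start near the ceiling in both cell types, while the B and T cell libraries of Lyz2 and of Spi1 at its first transcript did not overlap.

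Lyz2 encodes lysozyme M, a bactericidal enzyme of macrophages and neutrophils. Its promoter level had a lowest, median and highest library value of 36.7%, 45.9% and 54.2% in B cells against 60.8%, 64.7% and 71.8% in T cells. The highest B cell library thus lay under the lowest T cell library. The pooled difference was -18.0 points (quasi-binomial adjusted p = 0.000404), just short of the 20 points of the rule, and the two-sided exact permutation test of 8 against 8 libraries gave its smallest possible p, 0.000155. In each assay or sex alone, with 4 libraries per cell type, the difference was -16.1 to -19.9 points and did not pass (quasi-binomial adjusted p = 0.0814 to 0.141).

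At the Spi1 gene start the lowest, median and highest library values were 15.9%, 19.95% and 23.5% in B cells against 21.5%, 29.8% and 36.7% in T cells. The ranges overlapped, and the pooled difference was -9.02 points (quasi-binomial adjusted p = 0.0149), with an exact permutation p of 0.00497. In BS libraries alone it was -14.03 points and in oxBS libraries alone -3.64 points. In males and females alone it was -10.2 and -7.92 points. None of these passed (quasi-binomial adjusted p = 0.102 to 0.439). The interaction of cell type with assay did not pass after adjustment either (quasi-binomial p = 0.0176, adjusted p = 0.394). The gene record of Spi1 begins at chr2:91082390, while its first listed transcript starts 13706 bp further on at chr2:91096096. Around that second start the values were 26.2%, 37.6% and 40% in B cells against 60.3%, 65.9% and 74.3% in T cells. These did not overlap, and the difference of -29.7 points was called (quasi-binomial adjusted p = 5.67e-06), so that with the first listed transcripts 1 of 9 member promoters was called against 1.17% of 21049, and 0.466% called lower in B cells. Library levels did not overlap at 2 of the 9, Spi1 and Lyz2, against 3.91%.

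The 7 promoters that did not pass covered the whole range of levels. Cebpa was nearly free of methylation, at 0.855% ± 0.449 in B cells and 0.829% ± 0.382 in T cells (n = 8 each, ± SD) over 206 CpGs. Cd14, the co-receptor for lipopolysaccharide, was also low, at 15.3% ± 3.81 and 12.4% ± 2.51. At the other end stood Csf1r, the receptor of macrophage colony-stimulating factor, at 89.9% ± 1.51 and 92.6% ± 2.46, and Elane, the gene of neutrophil elastase, at 88.3% ± 1.75 and 88.0% ± 3.08.

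Between these lay Csf3r, the receptor of granulocyte colony-stimulating factor, at 43.3% ± 6.22 in B cells and 48.0% ± 7.31 in T cells, and Mpo, which encodes myeloperoxidase, at 55.9% ± 5.82 and 54.2% ± 3.59. Itgam, the CD11b chain of complement receptor 3, stood at 74.2% ± 4.16 in B cells and 64.98% ± 7.48 in T cells, a difference of 8.31 points with overlapping libraries (quasi-binomial adjusted p = 0.0939). It passed without T cell library 13 (quasi-binomial adjusted p = 0.0454) or without B cell library 4 (quasi-binomial adjusted p = 0.0171). In BS and oxBS libraries alone the Itgam difference was 2.56 and 14.3 points, and in males and females alone 6.96 and 10.05 points. None of these 4 passed (quasi-binomial adjusted p = 0.0613 to 0.873). Moving the TSS of Csf1r by 4974 bp to its first listed transcript gave 66.9% ± 6.36 in B cells against 66.9% ± 6.11 in T cells. The first listed transcript of Csf3r starts 2742 bp from its gene start. Around it levels were high in both cell types, at 86.8% ± 3.21 in B cells and 90.5% ± 2.53 in T cells (quasi-binomial adjusted p = 0.0974).

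Differences between the sexes and between the assays were tested at the member promoters in the same model, and none passed. The assay term passed for 0 of 9, against 0% of 20905 promoters, and the largest BS minus oxBS difference was 5.97 points, at Spi1 (quasi-binomial adjusted p = 0.760). The sex term also passed for 0 of 9, against 2.35% of all promoters, with a largest male minus female difference of 2.80 points at Csf3r (quasi-binomial adjusted p = 0.994). No interaction of cell type with sex or assay passed, with a smallest adjusted p of 0.394. Of the 374 tiles 0 passed for either term, against 0% of all tiles for assay and 0.124% for sex, and at an unadjusted p under 0.05 there were 29 for assay (7.75%, against 6.63% of all tiles) and 12 for sex (3.21%, against 3.26%).

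Tile by tile, the differences between B and T cells lay mostly in 3 genes. Of the 374 tested tiles 36 were called, or 9.63%, against 3.86% of 1404481 tiles over all protein-coding genes. In B cells 22 of them were lower (5.88%, against 1.36%) and 14 were higher (3.74%, against 2.5%). The libraries did not overlap in 31 of the 36, against 85.3% of all called tiles. By adjusted p alone 78 tiles passed, against 8.16% of all tiles, and 52 of them were lower in B cells, against 2.81%. The median difference over tested tiles was -0.395 points at the members and 0.483 points over all genes.

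Spi1 and Itgam held 14 called tiles each and Csf1r held 5, so that 33 of the 36 were in 3 genes. The remaining 6 genes held 3 called tiles among 164 tested (1.83%, against 3.86% of all tiles). The 3 genes were set apart by these same counts, which lowers the share left in the others. Whether the excess is shared by the members was therefore not tested. By adjusted p alone 7 of 23 tiles passed in Elane, 5 of 49 in Csf3r, 3 of 21 in Lyz2 and 2 of 18 in Cd14. Mpo had 1 of 34 and Cebpa 0 of 19, against 8.16% of all tiles. At least 1 called tile was found in 6 of the 9 members, against 49.6% of 21398 genes.

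**Figure D2:**
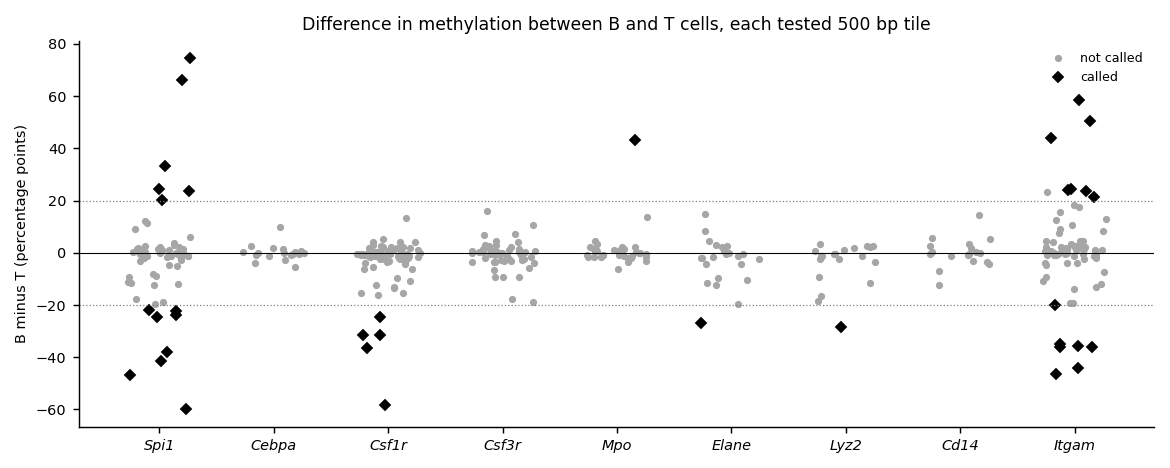
Difference in methylation between B and T cells (y axis, pooled B minus pooled T, percentage points) for each tested 500 bp tile of the 9 genes (x axis), with called tiles as black diamonds and dotted lines at 20 points either way. Large differences of both signs were seen at Spi1 and Itgam, called differences of 1 sign at Csf1r, and at most 1 called tile at each other gene.

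Most tiles were highly methylated, with 232 of the 374 at 80% or more in both cell types at once and 21 at 20% or less in both. Levels of 80% or more were found in 252 of the 374 tiles in B cells and 259 in T cells, and levels of 20% or less in 31 and 24. Cebpa gave the clearest block of low tiles, with levels of 0.428% to 4.47% in the 6 tiles from 1.5 kb upstream to 1.5 kb downstream of its TSS. Spi1 had a low tile of 30 CpGs 4 kb upstream, at 0.527% ± 1.00 in B cells and 1.70% ± 1.81 in T cells, and another 0.5 kb after the gene start, at 0% and 1.24% ± 1.34. Low tiles upstream of Elane lay in the neighbouring gene Prtn3, and those 8.5 to 9 kb upstream of Cd14 lay in Tmco6.

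**Figure D3:**
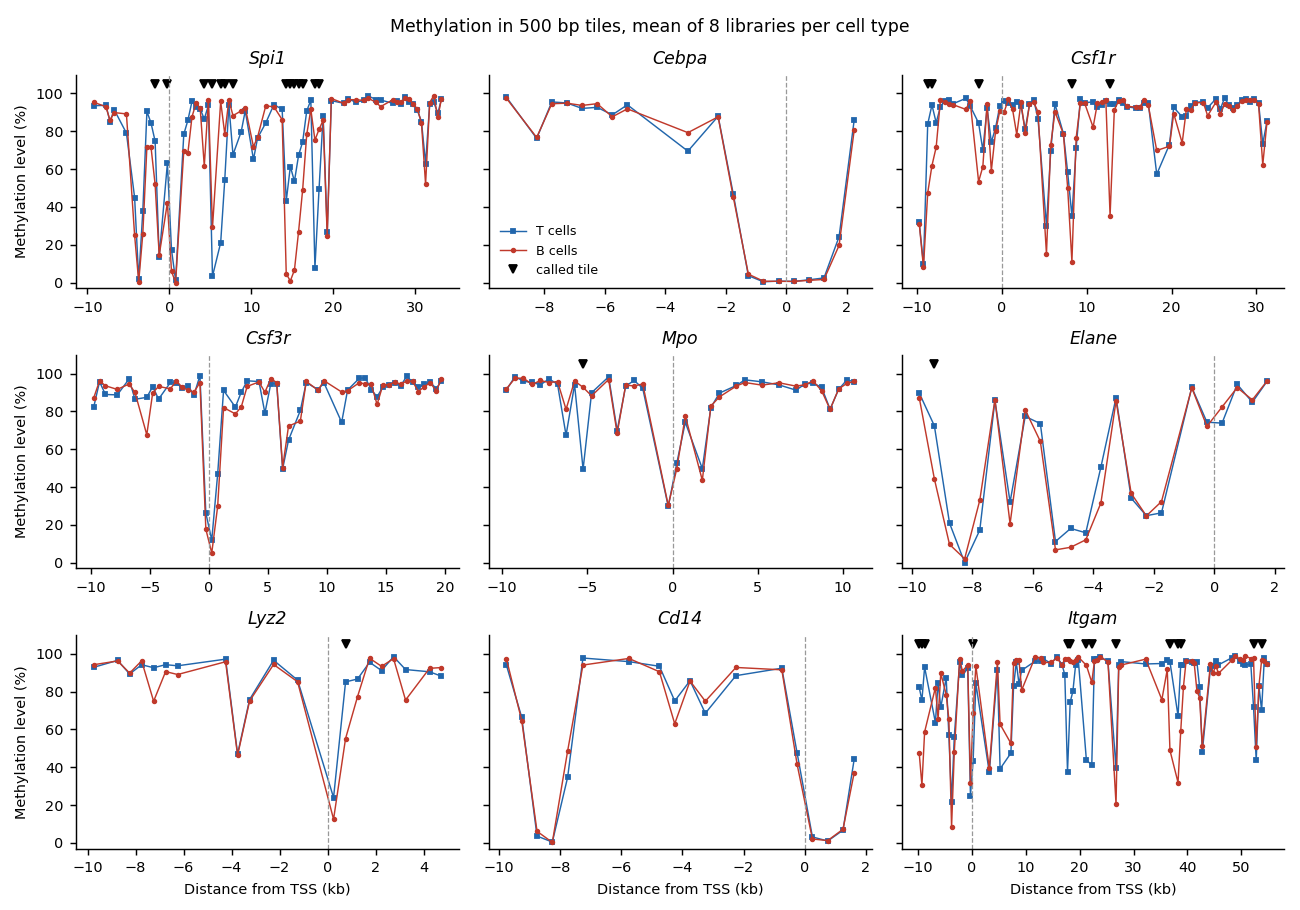
Methylation level (y axis, %, mean of the libraries with enough calls) in 500 bp tiles against distance from the TSS (x axis, kb, in the direction of transcription) in B cells (red circles) and T cells (blue squares), with triangles over called tiles and lines joining tested tiles. The profiles of Cebpa, Csf3r and Cd14 held no called tile, while those of Spi1, Itgam and Csf1r parted at several places.

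Spi1, which encodes PU.1, held differences in opposite directions in neighbouring stretches. From 5 to 8 kb after the gene start, upstream of the first listed transcript, 4 called tiles were higher in B cells. From 14 to 16.5 kb, over the first exon and first intron of that transcript, 5 called tiles were lower in B cells. From 17.5 to 18.5 kb, in its second intron, 2 called tiles were again higher in B cells.

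The first stretch (chr2:91087390-91090389) was 76.6% ± 6.44 methylated in B cells and 44.2% ± 6.00 in T cells (n = 8 each, ± SD). Its tile at 6 kb had the largest difference of any member tile. Library values there were 91.0%, 96.4% and 98.8% in B cells and 6.19%, 18.7% and 38.3% in T cells, as lowest, median and highest. All B cell libraries were nearly fully methylated and no T cell library came close, with a difference of 74.5 points (quasi-binomial adjusted p = 2.00e-07). The tile 1 kb before it stood at 29.1% ± 10.8 in B cells against 3.35% ± 1.44 in T cells.

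The second stretch (chr2:91096390-91098889), which begins 294 bp after the start of the first listed transcript, was 10.6% ± 1.04 methylated in B cells and 55.9% ± 2.95 in T cells. Its tile at 14.5 kb had 0%, 0.355% and 3.10% in B cells and 53.8%, 62.3% and 66.2% in T cells. B cell libraries were thus at or near 0 where T cell libraries were at intermediate levels, a difference of -59.9 points (quasi-binomial adjusted p = 1.22e-08). The contrast weakened along the intron, from -46.6 points at 15 kb and -41.6 points at 15.5 kb to -24.6 points at 16 kb, as the B cell mean rose from 6.69% to 26.8% and 49.0%.

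The third stretch (chr2:91099890-91100889) was 78.6% ± 6.16 methylated in B cells and 33.5% ± 5.68 in T cells. At its first tile, at 17.5 kb, the values were 67.6%, 76.0% and 83.8% in B cells and 2.94%, 5.76% and 17.1% in T cells. T cells were the less methylated cells here, by 66.1 points (quasi-binomial adjusted p = 1.13e-05). That tile had as few as 11 calls in a library, and 2 of the B cell libraries with under 20 calls were left out of its fit. In addition 3 single tiles, at 2 kb and 0.5 kb upstream and 4 kb after the gene start, were lower in B cells, with differences of -22.2, -21.9 and -23.8 points.

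**Figure D4:**
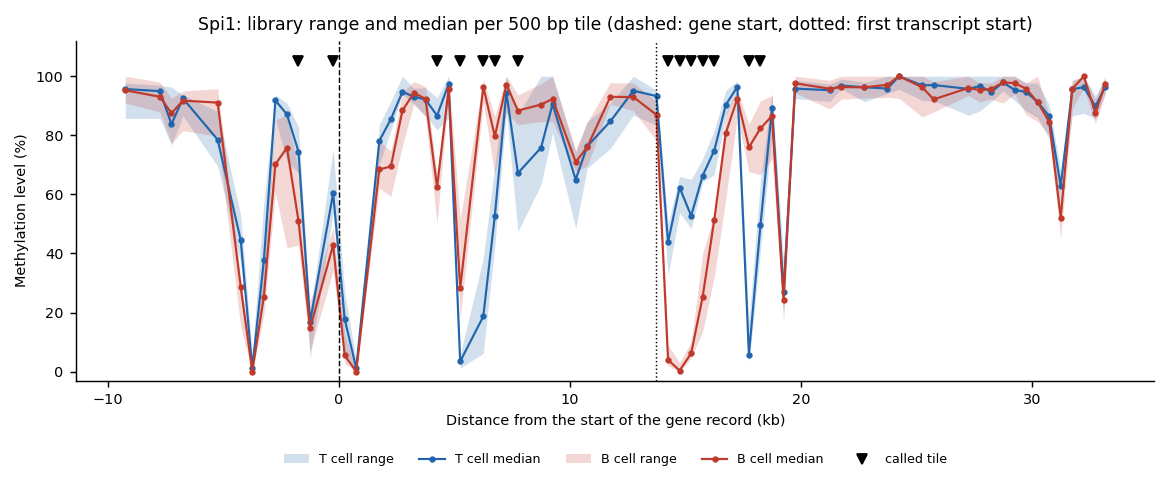
Methylation level (y axis, %) over Spi1 in 500 bp tiles against distance from the start of the gene record (x axis, kb), with a line for the median and a band for the range of B cell (red) and T cell (blue) libraries, triangles over called tiles, and lines at the gene start (dashed) and at the start of the first listed transcript (dotted). B cell libraries lay above T cell libraries at 6 kb and 17.5 kb and below them from 14 to 16.5 kb.

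Csf1r, on chromosome 18, had 5 of its 70 tested tiles called, and all 5 were lower in B cells. By adjusted p alone 12 of its tiles were lower and 1 was higher, the tile at 18 kb, with a difference of 13.2 points (quasi-binomial adjusted p = 0.0209). The largest difference was in intron 6 of the first listed transcript, in the tile 12.5 kb after the gene start (chr18:61113098-61113597). Library values there were 24.6%, 35.6% and 46.9% in B cells against 86.6%, 95.1% and 100% in T cells. The groups were far apart, with a difference of -58.2 points (quasi-binomial adjusted p = 1.11e-06).

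In intron 2, at 8 kb, Csf1r stood at 11.1% ± 4.79 in B cells and 35.2% ± 5.07 in T cells, a difference of -24.5 points (quasi-binomial adjusted p = 4.40e-05). Upstream, the stretch from 9 to 8 kb before the gene start was 55.8% ± 5.99 methylated in B cells and 88.9% ± 1.66 in T cells. A single tile 3 kb before the gene start was lower in B cells, with a difference of -31.6 points (quasi-binomial adjusted p = 0.000881), with 7 B cell libraries in the fit. The tile 9.5 kb upstream was low in both cell types, at 8.14% ± 2.69 and 9.64% ± 1.495.

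Itgam was the longest member and, like Spi1, held called tiles of both signs, 7 lower and 7 higher in B cells among 74 tested. Higher in B cells were 4 tiles of 2 stretches inside the gene, the tile at the TSS and 2 tiles near the gene end. Lower in B cells were 3 upstream tiles and 4 tiles within intron 12 and the exons after it. The readthrough gene Gm49368 covers Itgam, so that tiles inside the gene belong to both records.

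At 17.5 kb, over exon 7 (chr7:128080140-128080639), library values were 93.9%, 97.8% and 100% in B cells against 17.2%, 38.1% and 54.8% in T cells. The B cell libraries were near full methylation and the T cell libraries spread widely below them, with a difference of 58.6 points (quasi-binomial adjusted p = 2.40e-07). The stretch from 21 to 22.5 kb, over exons 9 and 10, was 90.8% ± 2.16 methylated in B cells and 42.5% ± 4.73 in T cells. At the TSS tile the levels were 68.8% ± 4.66 and 43.5% ± 9.45, a difference of 24.1 points (quasi-binomial adjusted p = 0.00146).

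The reverse was seen at 36.5 kb, in intron 12 (chr7:128099140-128099639), where library values were 38.7%, 46.7% and 60.5% in B cells and 89.2%, 96.1% and 100% in T cells. T cell libraries were nearly fully methylated and B cell libraries were not, with a difference of -46.6 points (quasi-binomial adjusted p = 1.93e-06). The stretch from 38 to 39 kb was 44.0% ± 8.07 methylated in B cells and 81.4% ± 6.09 in T cells. Upstream, from 10 to 8.5 kb before the TSS, the levels were 44.7% ± 4.70 and 82.8% ± 4.96. The first tile of that upstream stretch rested on 5 B cell libraries.

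**Figure D5:**
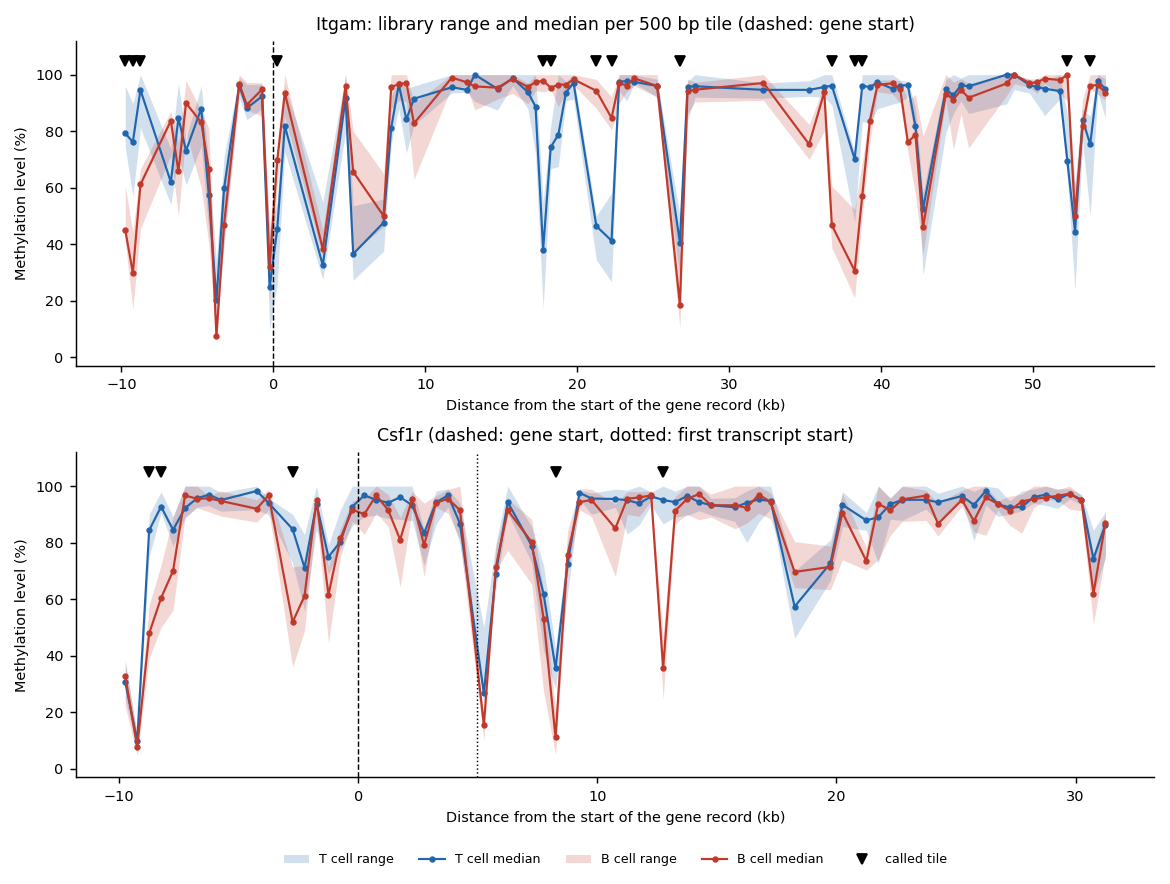
Methylation level (y axis, %) over Itgam (top) and Csf1r (bottom) in 500 bp tiles against distance from the start of the gene record (x axis, kb), with medians as lines and library ranges as bands for B cells (red) and T cells (blue) and triangles over called tiles. B cell libraries lay above T cell libraries at 17.5 to 18.5 kb and 21 to 22.5 kb of Itgam and below them at 36.5 kb of Itgam and 12.5 kb of Csf1r.

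The granule enzymes held 1 called tile each. For Mpo it lay 5.5 kb upstream (chr11:87788081-87788580), where library values were 88.9%, 93.1% and 96.4% in B cells against 33.3%, 52.0% and 58.1% in T cells. The groups did not overlap, and B cells were higher by 43.0 points (quasi-binomial adjusted p = 2.19e-05), though the tile held 3 CpGs and 17 to 53 calls per library and 7 B cell libraries entered the fit. In oxBS or male libraries alone it did not pass (quasi-binomial adjusted p = 0.0683 and 0.0973). The other 33 tested tiles of Mpo did not pass by adjusted p.

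For Lyz2 the called tile was the first intronic one, 0.5 kb after the TSS (chr10:117281322-117281821), with library values of 42.0%, 56.3% and 63.8% in B cells and 75.6%, 85.6% and 95.8% in T cells. Every B cell library was lower than every T cell library, with a difference of -28.5 points (quasi-binomial adjusted p = 0.000353), and this tile is part of the promoter window described above. It did not pass in oxBS or female libraries alone (quasi-binomial adjusted p = 0.176 and 0.178). Elane's called tile, 9.5 kb upstream and inside Prtn3, the gene of proteinase 3, stood at 44.4% ± 5.38 in B cells and 72.4% ± 6.88 in T cells, with 7 B cell libraries in the fit. The difference was -26.9 points over 3 CpGs (quasi-binomial adjusted p = 0.00293), and it did not pass in either assay or either sex alone (quasi-binomial adjusted p = 0.176 to 0.340).

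No tile was called at Cebpa, Csf3r or Cd14. Cebpa had 0 of 19 tested tiles past the adjusted p either. Csf3r had 5 of 49 (against the 8.16% over all tiles), the largest at 5.5 kb upstream, where B cells stood at 67.7% ± 6.35 and T cells at 87.4% ± 2.67 (difference -19.0 points, quasi-binomial adjusted p = 9.12e-05). Cd14 had 2 of 18, with differences of 14.4 points at 8 kb upstream and -12.3 points at 4.5 kb upstream.

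Other genes of myeloid development and function were listed for comparison, 50 in all, of which 49 were in the annotation and tested. Their promoters were called at 1 gene lower and 1 gene higher in B cells, beside the 1.1% called over all promoters. Ncf4, a subunit of the phagocyte NADPH oxidase, stood at 31.9% ± 7.70 in B cells and 62.0% ± 5.77 in T cells (quasi-binomial adjusted p = 0.000236). Ccr2, a chemokine receptor of monocytes, stood at 91.0% ± 3.56 and 53.5% ± 8.63 (quasi-binomial adjusted p = 3.74e-06). By adjusted p alone 11 were lower and 6 higher in B cells, where 10% of all promoters passed and 2.89% did so lower in B cells. The median difference of -0.550 points stood beside 0.522 points over all promoters. Of their 1974 tested tiles 79 were called lower and 84 higher in B cells, or 8.26%, against 3.86% of all tiles.

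The promoters most like that of Lyz2 over the 16 libraries, by root mean square difference among 20425 promoters, were Lbp at 4.63 points, Ccm2l at 5.33 points and Cox19 at 5.64 points. Each stood at 48.0% to 50.2% in B cells and 61.6% to 66.2% in T cells.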

How the data were processed

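DNA methylation was measured by WGBS in 16 libraries of sorted mouse B and T cells. The authors deposited counts: the number of unmethylated and of methylated calls per CpG and library, without normalization. The submitters' processing notes name Trim Galore 0.6.0, Bismark 0.20.0 and SAMtools 1.3.1 with mm10, and alignments with a MAPQ of at least 10 were used. Positions off reference CpGs or on contigs outside the chromosomes were left out.

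Windows were laid on GENCODE vM21 genes from the start of the gene record. Windows with 3 or more CpGs and a minimum of 20 calls in 5 libraries of each cell type were tested by a quasi-binomial logistic F test, with a Pearson dispersion of at least 1, adjusted over all promoters or all tiles. Differences compare pooled calls, while ± SD is the spread of library levels around their mean. Exact permutation tests ran over 12870 splits. Intervals are not given, and depth per library limits precision by counting error as well. Members and lists were chosen with earlier results of these data known. All members were named, with the called tile of largest difference and each run of called tiles, allowing a gap of 1 tile, in each, and at most the 5 largest called promoters of the other list, of which 2 were called. Other tiles were chosen after their values were seen. Among 20000 simulated tiles of this comparison 100 were changed by 20 points and 100 by 40 points, of which 37% and 99% were called. By adjusted p alone 76% and 99% passed, as a change of 20 points lies on the limit of the rule. The simulation used a fixed spread between libraries and adjusted over 20000 tiles, so these shares are not detection rates over all tiles. Alternatives changed the window, TSS, tile length, filters, limits, libraries, covariates and test. Python 3.11.15, NumPy 2.4.6, SciPy 1.17.1, pandas 2.3.3 and Matplotlib 3.10.9 were used.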

Additional observations from a re-analysis of the deposited data

Results flagged for a closer look

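Within a cell type, 36 groups of 8 or fewer libraries were looked at for a library far from the others, by the gap to its neighbour over the range, and 5 had one. About 1 in 20 groups would be picked by chance. Male BS library 4 of B cells was the lowest at 2 promoters. At Itgam it stood at 64.8%, with the next at 73.5% and the highest at 78.7%. At Spi1, around the first listed transcript, it stood at 26.2%, with the next at 35.0% and the highest at 40%.

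The other 3 were single libraries at 3 windows. At Cebpa, male BS library 5 of T cells stood at 1.67%, with the next at 0.895%. At the gene start of Csf1r, male oxBS library 2 of B cells stood at 86.6%, with the next at 89.3%. At the first transcript of Csf1r, female oxBS library 9 of B cells stood at 80.9%, with the next at 68.5%.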

How the results depend on the processing

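The call of 0 member promoters became 1 with a limit of 10 points or with the TSS of the first listed transcript. The counts of called tiles, 22 lower and 14 higher in B cells, came to 46 and 23 with a limit of 10 points, 14 and 7 with a limit of 30 points, 14 and 7 with a minimum of 40 calls, 11 and 8 in tiles of 1000 bp, 9 and 6 in BS libraries, 9 and 8 in oxBS libraries, 8 and 5 in male and 9 and 5 in female libraries, where fewer libraries were fitted. Leaving out each library, an alternative added after seeing the data, gave 21 to 25 lower and 13 to 14 higher. The number of tiles tested also depends on the minimum of calls, the tile length and the libraries used. Shares over all tiles at these settings are not given, so these counts do not show whether the members still exceed them. The promoter difference of Lyz2 did not pass by adjusted p within TSS ± 500 bp, and those of Lyz2 and Spi1 did not pass in each assay and sex alone. Differences that changed sign did not pass in either setting. They were Cd14 -0.413 within ± 500 bp, Cebpa 0.0495, Mpo -1.52 and Elane -1.004 within ± 2000 bp, Csf1r 0.484 at the first transcript, Mpo -0.189 in BS, Cebpa 0.134 and Elane -0.0302 in oxBS, Mpo -2.22 and Elane -1.36 in males, Cebpa 0.132 in females, Cebpa 0.0263 as a mean over libraries, and Elane -0.979 and Cd14 -0.960 as a mean over CpGs. Without 1 library Cebpa ranged from -0.131 to 0.119 and Elane from -0.534 to 0.827. For BS minus oxBS in B cells they were Cebpa -0.126, Itgam -1.47, Lyz2 -1.77 and Mpo -1.08, and within ± 500 bp Csf3r -0.0554 and Lyz2 -0.488. For male minus female they were Elane -0.487 in B cells, Spi1 0.297 and Mpo 4.21 in T cells. The cause was not tested. Within ± 500 bp Csf3r and Itgam also passed, and within ± 2000 bp Csf1r and Csf3r, with the values of the report. No paired analysis was possible because the labels name no mouse, and whether B and T cell libraries share mice is not known.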

Other observations

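Between 10 and 20 kb upstream of the 9 genes, outside the windows of the report, 139 tiles were tested in the 20 kb alternative and 5 were called (3.597%, against 3.86% of all tiles of the report), 4 lower and 1 higher in B cells. The tile 14 kb upstream of Itgam (chr7:128048640-128049139) was almost unmethylated in B cells, at 1.24% ± 2.72, and intermediate in T cells, at 56.7% ± 7.11 (n = 8 each, ± SD). The pooled difference was -55.3 points (quasi-binomial adjusted p = 1.53e-06). The libraries did not overlap. Csf1r was lower in B cells 16 kb upstream (chr18:61084598-61085097), at 65.1% ± 3.88 against 96.3% ± 2.21 in T cells. The pooled difference there was -31.0 points (quasi-binomial adjusted p = 1.145e-06), again without overlap of the libraries. Elane was lower in B cells at 13.5 kb and 11.5 kb upstream, with differences of -29.97 and -26.8 points, the latter in a tile within 1 kb of the TSS of Prtn3. The promoter window of Prtn3 as a whole, at 7.70% in B cells against 8.91% in T cells, did not pass (quasi-binomial adjusted p = 0.267). Lyz2 was higher in B cells at 11.5 kb upstream, with pooled levels of 71.3% and 31.8%, in a tile that lies within the promoter window of its neighbour Lyz1. That window, at 83.7% in B cells against 71.2% in T cells, passed by adjusted p (quasi-binomial adjusted p = 0.00296) and was not called. Spi1 had no called tile there. The tiles 12.5 and 12 kb upstream of its gene start, with 43 and 31 CpGs, were nearly unmethylated in both cell types, at 0.351% and 0.665% in B cells and 0.425% and 0.411% in T cells. Apart from Prtn3 and Lyz1, other genes were not looked up in this range, so these tiles and that of Csf1r may belong to a neighbour.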
